A study of Macaca mulatta with 10 samples.

Results

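The genes described here are those of the ubiquitin-conjugating (E2) enzymes, taken as every row of the authors' gene table whose symbol starts with UBE2. The rule found 34 of 18622 gene rows. Lymph nodes from 10 male rhesus macaques were profiled on Illumina bead arrays designed for human transcripts, with 1 array per animal. The 5 animals of the unstable social condition carried age labels of 6.84, 6.72, 6.7, 5.62 and 5.61 (unstable 1 to 5), and the 5 animals of the stable social condition had age labels of 5.73 to 5.87, with no unit stated. Unstable animals 1 to 3 shared slide 1 with stable animal 5, unstable animals 4 and 5 were on slide 3, and stable animals 1 to 4 were on slide 2. Slide 1 was therefore the single slide with both groups, with 1 stable animal, and its unstable animals were those with the higher age labels. The labels give no genotype, agent or dose for either group.

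Ubiquitin is passed from an E1 activating enzyme to the active-site cysteine of an E2, which works with an E3 ligase to attach it to a target protein. The E2 largely sets what kind of chain is built, so that members of the family serve protein destruction, DNA repair, cell division or immune signalling. A few members carry ubiquitin-like proteins (SUMO, NEDD8, ISG15 or FAT10) in place of ubiquitin. In lymphocytes, UBE2N with UBE2V1 builds the chains used in signalling downstream of antigen and Toll-like receptors, and UBE2L6 loads the interferon-induced modifier ISG15.

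The rule was checked against the names. Of the 34 symbols, 32 were found among the protein-coding macaque genes of RefSeq, and the other 2 were UBE2MP1, a pseudogene of UBE2M, and UBE2NL, a copy of UBE2N. UBE2V1 and UBE2V2 are E2-like partners without the catalytic cysteine, so the symbol does not mark an active enzyme in every case. UBE2K is listed by its older symbol HIP2 and CDC34 carries no UBE2 symbol here, so both fall outside the rule.

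Median intensity per array was between 104.5 and 118.6, and correlations between arrays over the 8305 gene rows above background on 3 or more arrays ran from 0.971 to 0.99. The lymph node label was checked against marker lists. Of 9 measured T cell markers 8 were above background on all 10 arrays, and of 9 B cell markers 6 were. All 7 measured erythroid markers had lower means in unstable animals, 2 of them above background on all arrays, HBA2 with a difference of -0.94 (SE 0.251, limma adjusted p = 0.918) and HBB with -0.83 (SE 0.228, limma adjusted p = 0.918). The mean of that list was 7.90 to 8.28 in unstable and 8.14 to 8.49 in stable animals. Of 8 neutrophil markers 5 had lower and 3 higher means. Only S100A9 and CSF3R were above background on all arrays, and 3 markers were on none. S100A9 differed by -1.49 (SE 0.692, limma adjusted p = 0.942), with an SD of 1.738 in stable and 0.333 in unstable animals. CSF3R differed by -0.41 (SE 0.15, limma adjusted p = 0.942). The list mean was 6.99 to 7.15 in unstable and 7.08 to 7.78 in stable animals. The part of these cells in the UBE2 values was not tested. A node is a mixture of cells, and in such bulk RNA fewer cells of a type and less RNA per cell cannot be told apart.

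The family divided into genes with and without measurable signal. For each array, the cutoff for signal was set at 3 SDs above the most frequent log2 value, the SD being that of the values below this mode. By this measure 23 of the 34 members were above background on all 10 arrays, UBE2R2 and UBE2V1 on 2 arrays, and 9 on no array. Those 9 were UBE2D1, UBE2D4, UBE2J2, UBE2MP1, UBE2NL, UBE2S, UBE2U, UBE2V2 and UBE2W. For them the array gives a bound and not a level. Signals of different probes depend on how well each human probe binds the macaque transcript, so the order of the genes on this scale is an order of signals and not of transcript numbers.

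**Figure D1:**
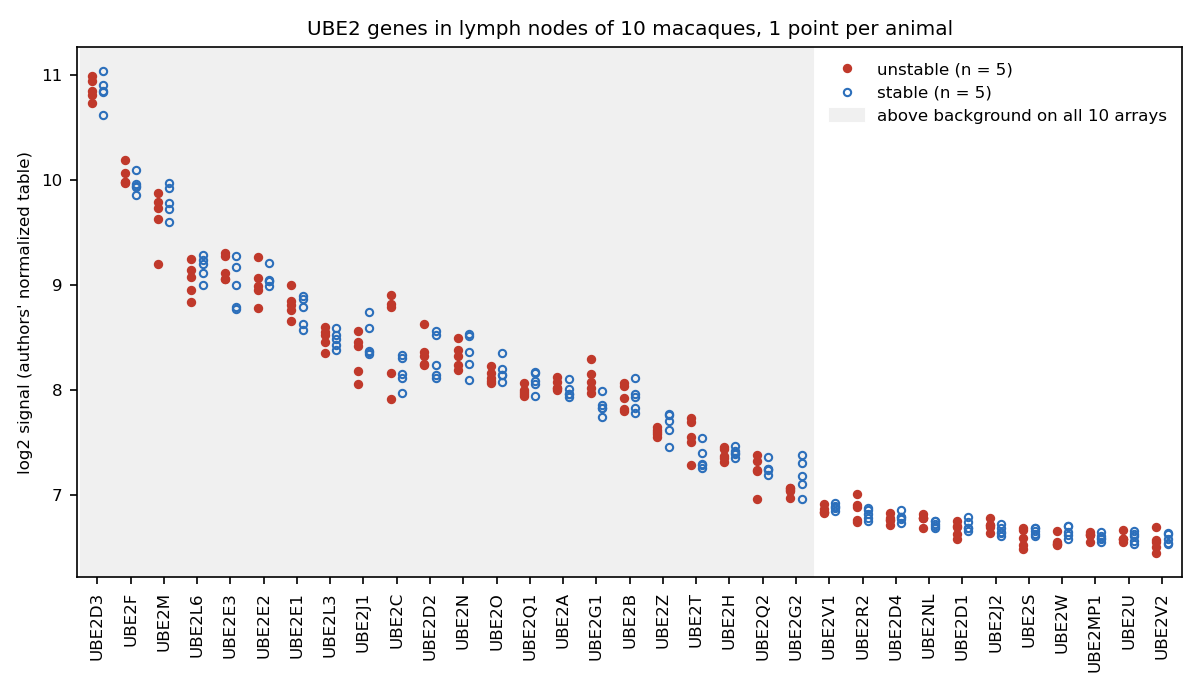
Log2 signal (authors' normalized table, y axis) of each UBE2 gene drawn (x axis, sorted by mean) in each of 5 unstable (filled) and 5 stable (open) animals. The genes on the shaded ground were above background on all 10 arrays, and the groups overlap for each gene drawn.

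The highest signals belonged to UBE2D3, UBE2F and UBE2M. UBE2D3, a broadly used E2 that serves many E3 ligases, was at 10.81, 10.99, 10.85, 10.74 and 10.95 in unstable animals 1 to 5, against 10.84, 11.04, 10.85, 10.62 and 10.91 in stable animals 1 to 5 (log2 signal). UBE2F, which passes NEDD8 to the cullin CUL5, was at 9.98, 9.97, 9.98, 10.07 and 10.19 in unstable animals, against 9.86, 9.94, 10.10, 9.96 and 9.93 in stable animals. UBE2M, the NEDD8 carrier for the other cullins, was at 9.63, 9.73, 9.79, 9.20 and 9.88 in unstable animals, against 9.97, 9.60, 9.92, 9.72 and 9.78 in stable animals. All 3 genes overlapped between groups, and the lowest UBE2M value was that of unstable animal 4. The adipocyte marker list, of which 2 of 8 measured genes were above background on all arrays and none on no array, also stood apart in that animal, with a mean of 8.14, against 7.48 to 7.76 in the other unstable animals and 7.42 to 7.78 in stable animals. Its part in the UBE2M value was not tested.

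The lowest signals were those of UBE2V2 (6.44 to 6.69 in unstable and 6.53 to 6.63 in stable animals), UBE2U (6.55 to 6.66 in unstable and 6.53 to 6.65 in stable animals) and UBE2MP1 (6.55 to 6.64 in each group). UBE2V2 is the partner of UBE2N in DNA damage tolerance, and UBE2U is a little studied E2. These 3 rows were above background on none of the arrays, so they give an upper bound on signal and no level.

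Spread between animals was like that of other genes with signal. The median SD over the 10 arrays was 0.131 log2 units for the 23 members above background, against 0.137 for all 6379 gene rows above background on all arrays. UBE2C had the largest SD of the family at 0.363, larger than that of 94.1% of those 6379 rows, followed by UBE2M at 0.218 and UBE2J1 at 0.198. The smallest belonged to UBE2H at 0.05 and UBE2A at 0.061, with 1.61% and 3.83% of the 6379 rows below them. Both rows are means of 2 probes, and so is that of UBE2E3, which had an SD of 0.191. The part of this averaging in their spread was not tested. The UBE2H probes, both above background on all arrays, had differences of opposite sign, 0.05 (SE 0.052) and -0.09 (SE 0.049), and 1 of the UBE2A probes was above background on no array. UBE2H, the E2 of the CTLH ligase complex, stayed between 7.31 and 7.45 in unstable animals and between 7.35 and 7.46 in stable animals. UBE2A, a RAD6 homologue that acts on histone H2B and on the replication clamp PCNA, stayed between 8.00 and 8.12 in unstable animals and between 7.93 and 8.10 in stable animals.

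No animal held most of the extremes. Among the 23 members above background, the highest value fell in stable animal 1 for 5 genes and in stable animal 2 and unstable animal 3 for 4 genes each. The lowest value fell in unstable animal 4 and in stable animal 4 for 4 genes each. The mean log2 signal over the 23 genes was 8.43, 8.45, 8.50, 8.43 and 8.52 in unstable animals 1 to 5 and 8.50, 8.46, 8.48, 8.39 and 8.46 in stable animals 1 to 5.

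The comparison the design sets up is that of the social conditions, unstable against stable. No UBE2 gene passed a limma adjusted p of 0.05, the adjustment covering all 18622 gene rows (0.0% of all rows passed), and the smallest adjusted p of the family was 0.892. Means were higher in unstable animals for 16 members and lower for 18, against 48.9% of all rows with higher means. The median difference was -0.02 log2 units over the members and -0.002 over all rows. At an unadjusted limma p under 0.05 there were 4 members, where 5.13% of all rows met this. UBE2G1 and UBE2T had higher means (2.41% of all rows met the threshold in this direction), and 2 members, UBE2W among them, had lower means (2.73% of all rows). Separation of the groups without overlap occurred for 0 members and for 0.838% of all rows. With median scaling of the probe intensities in place of the authors' scale, 6 of the 26 members that could be followed had an unadjusted p under 0.05, 5 higher and 1 lower, where 6.75% of all probes in that fit met this. Differences were under 0.1 log2 units in size for 26 of the 34 members and 15966 of the 18622 rows. Among members above background on all arrays this held for 15 of 23, against 4371 of 6379 such rows. The animals of each group are separate individuals, so these tests set the group difference against the spread between animals within groups. Only slide 1 held both groups, so differences between the social conditions cannot be fully told apart from differences between slides.

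**Figure D2:**
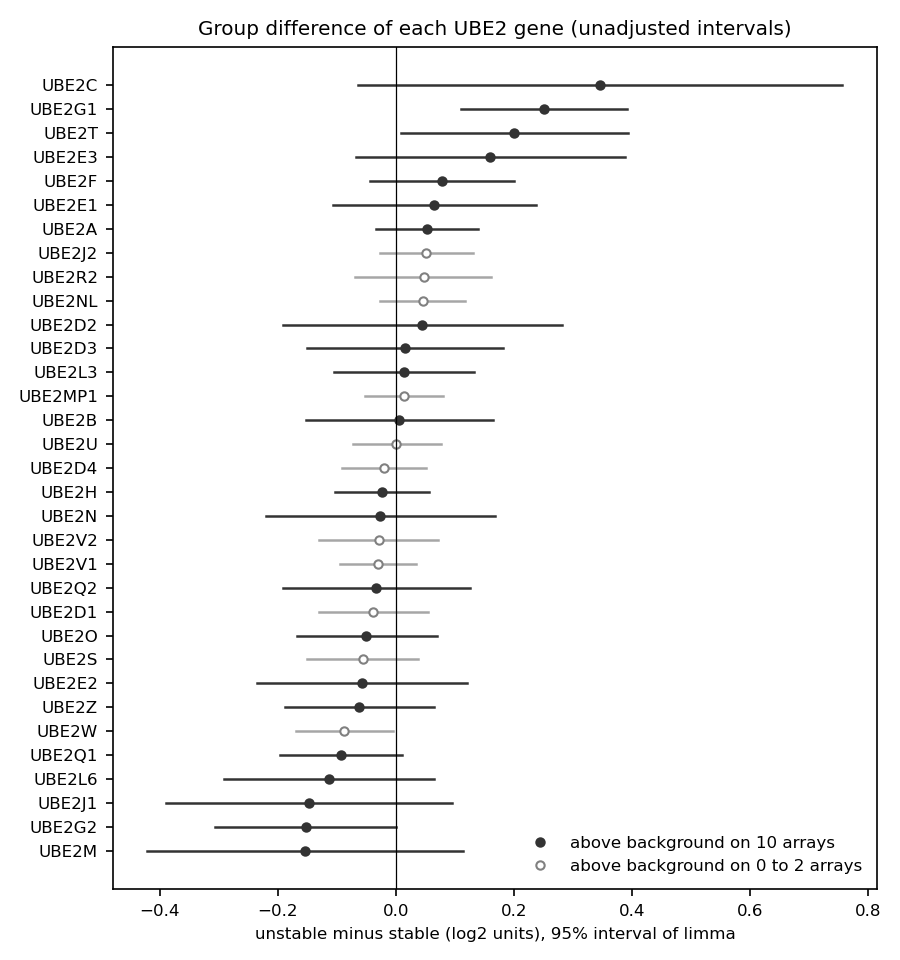
Difference between unstable and stable animals for each UBE2 gene drawn (x axis, log2 units), with the 95% interval from limma not adjusted for the number of genes. Filled points were above background on all 10 arrays, open points on 0 to 2 arrays, and UBE2C has the widest interval, from -0.06 to 0.76.

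Among the E2s of endoplasmic reticulum protein degradation, UBE2G1 had the smallest p of the family. This soluble E2 builds destruction chains, and works among others with cullin ligases. It was at 8.07, 7.97, 8.29, 8.02 and 8.15 in unstable animals 1 to 5, against 7.83, 7.85, 7.99, 7.83 and 7.74 in stable animals 1 to 5. The groups overlapped through 1 pair of values, unstable animal 2 being below stable animal 3. Means were 8.10 ± 0.124 in unstable and 7.85 ± 0.087 in stable animals (SD, n = 5 each). The difference was 0.25 (SE 0.063, 95% interval 0.11 to 0.39, limma adjusted p = 0.892), and within slide 1 it was 0.37 (SE 0.133).

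The UBE2G1 row combined a pair of probes that did not carry the same information. The match of the tables showed that it equals the log2 of the mean of 2 probes. One of them was above background on no array, with means of 6.67 in unstable and 6.60 in stable animals. The other was above background on all 10 arrays and read 8.92, 8.80, 9.21, 8.85 and 9.01 in unstable animals, against 8.64, 8.67, 8.83, 8.63 and 8.50 in stable animals. Its difference was 0.31 (SE 0.08), against 0.07 (SE 0.042) for the dim probe. The row, a mean of both, differed by less than the bright probe alone.

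UBE2G2, which acts in degrading proteins of the endoplasmic reticulum, stood on the other side. It was at 7.04, 7.03, 6.97, 7.06 and 7.06 in unstable animals, against 7.10, 7.30, 6.96, 7.38 and 7.18 in stable animals. All unstable animals lay in a narrow band, and 4 of the 5 stable animals lay above it. The difference was -0.15 (SE 0.069, limma adjusted p = 0.942). It was -0.10 without stable animal 4 and -0.21 without stable animal 3. The unadjusted limma p of UBE2G2 was 0.0506 as reported. This p was under 0.05 without stable animal 1 or 3, and above 0.05 without stable animal 2, 4 or 5. Other alternatives fell on both sides of 0.05. Of its 2 probes, 1 was above background on all arrays, with a difference of -0.20 (SE 0.102), and 1 on no array. Whether UBE2G1 and UBE2G2 differ from each other in response was not tested.

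UBE2J1, which is anchored in the membrane of the endoplasmic reticulum, was at 8.05, 8.42, 8.56, 8.18 and 8.46 in unstable animals, against 8.59, 8.37, 8.74, 8.36 and 8.34 in stable animals. Its difference of -0.15 (SE 0.109) did not pass (limma adjusted p = 0.945), and within slide 1 it was -0.001. It was -0.08 without unstable animal 1 and likewise -0.08 without stable animal 3. Its relative UBE2J2 was above background on no array and ranged from 6.60 to 6.78. Of 9 measured partners of this route 5 had higher means and 4 lower means, and none passed. An unadjusted limma p under 0.05 was met by 1 of them, where 5.13% of all rows met this. HERPUD1, a scaffold of the degradation complex induced by stress in the endoplasmic reticulum, differed by -0.22 (SE 0.085, limma adjusted p = 0.942), and DERL2, a channel component, by -0.10 (SE 0.057).

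**Figure D3:**
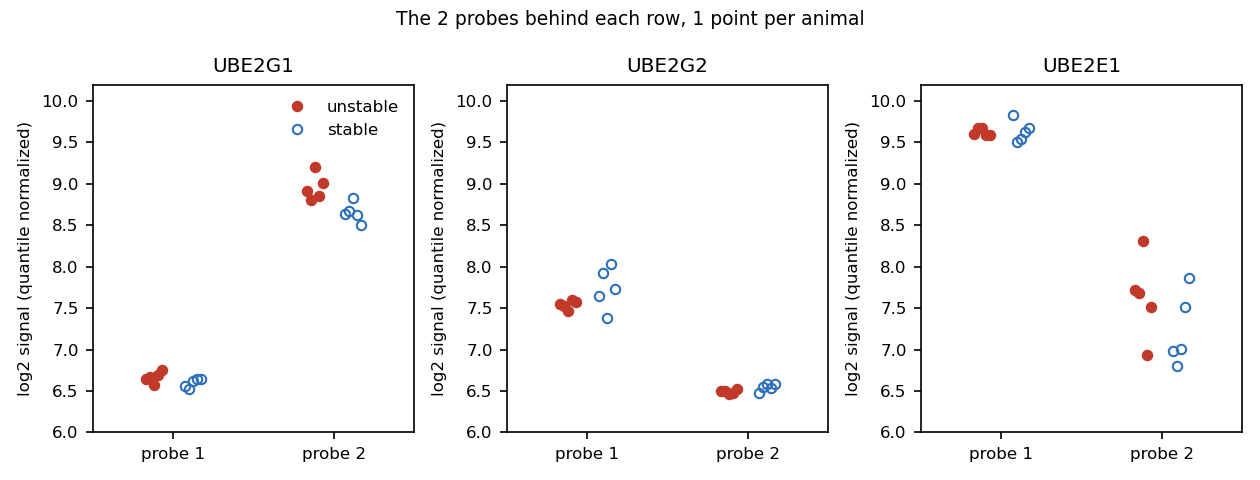
Log2 signal (y axis, quantile normalized probe table) of the 2 probes behind the rows of UBE2G1, UBE2G2 and UBE2E1 in each unstable (filled) and stable (open) animal. For UBE2G1 and UBE2G2 one probe lies near the floor in all animals, and for UBE2E1 the second probe spans 6.80 to 8.31 while the first stays between 9.50 and 9.83.

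The UBE2D and UBE2E genes, grouped here with UBE2L3 and UBE2W, gave small differences. Of the 9 genes of this class (UBE2D1 to UBE2D4, UBE2E1 to UBE2E3, UBE2L3 and UBE2W) 5 had higher and 4 lower means in unstable animals. UBE2D2 differed by 0.04 (SE 0.107), with 8.24 to 8.63 in unstable and 8.11 to 8.56 in stable animals, and UBE2D3 by 0.02 (SE 0.075). The interval for UBE2D3 ran from -0.15 to 0.18. UBE2L3, which serves the linear chain ligase complex and Parkin, differed by 0.01 (SE 0.054). Its row averages 2 probes. One was above background on all 10 arrays, with a difference of 0.03 (SE 0.067), and the other on no array, with -0.08 (SE 0.062). The dim UBE2D1 and UBE2D4 rows stayed between 6.58 and 6.85 over all animals.

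UBE2E3 had the largest difference of this class. It was at 9.06, 9.28, 9.06, 9.30 and 9.11 in unstable animals, against 8.77, 9.17, 9.28, 8.79 and 9.0 in stable animals. Stable animals 1 and 4 were the lowest, and the remaining 8 values overlapped. The difference was 0.16 (SE 0.103, limma adjusted p = 0.945), and it was 0.10 without stable animal 1 and 0.11 without stable animal 4. The row averages 2 probes, both above background on all 10 arrays. One had a difference of 0.01 (SE 0.072) and the other of 0.19 (SE 0.113). UBE2E2 differed by -0.06 (SE 0.08).

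UBE2E1 had probes that varied to very different degrees. One probe stayed between 9.59 and 9.68 in unstable animals and between 9.50 and 9.83 in stable animals, and its group difference was -0.01 (SE 0.058). The other read 7.72, 7.68, 8.31, 6.93 and 7.52 in unstable animals and 6.98, 6.80, 7.01, 7.52 and 7.87 in stable animals, and was above background on 8 arrays. Its difference was 0.39 (SE 0.255). Stable animals 1 to 3 and unstable animal 4 lay between 6.80 and 7.01, and the other 6 animals between 7.52 and 8.31. The row itself, which averages both probes, differed by 0.07 (SE 0.077).

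UBE2W, which attaches ubiquitin to the N terminus of proteins, was among the 4 genes with an unadjusted p under 0.05, yet lay at the floor of the array. It read 6.53, 6.55, 6.53, 6.65 and 6.52 in unstable animals and 6.58, 6.61, 6.64, 6.70 and 6.70 in stable animals. All but unstable animal 4 of the unstable group were below every stable animal. The difference was -0.09 (SE 0.038, limma adjusted p = 0.942) and within slide 1 it was -0.16. Since no array had this row above background in either group, this is a difference between signals at the floor and not a fold change of the transcript.

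The E2s of cell division and DNA repair include the gene with the widest spread. UBE2C, the first E2 of the anaphase-promoting complex, which starts the chains on cyclin B and securin in mitosis, was at 8.16, 7.91, 8.82, 8.79 and 8.90 in unstable animals 1 to 5, against 8.33, 7.97, 8.11, 8.30 and 8.15 in stable animals 1 to 5. Unstable animals 3, 4 and 5 stood above every stable animal, while unstable animal 2 had the lowest value of all 10. Means were 8.52 ± 0.448 in unstable and 8.17 ± 0.148 in stable animals (SD, n = 5 each). The difference was 0.35 (SE 0.185, 95% interval -0.06 to 0.76, limma adjusted p = 0.942). It was 0.16 within slide 1, 0.58 with the age label as a covariate and 0.67 without unstable animals 1 to 3, a fit in which the unstable animals are all on slide 3. In the last 2 of these fits its unadjusted limma p was under 0.05.

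UBE2T, which attaches a single ubiquitin to FANCD2 in the Fanconi anaemia pathway, was at 7.55, 7.28, 7.73, 7.50 and 7.69 in unstable animals, against 7.40, 7.54, 7.28, 7.29 and 7.25 in stable animals. All but unstable animal 2 lay above 4 of the 5 stable animals. The difference was 0.20 (SE 0.087, 95% interval 0.01 to 0.39, limma adjusted p = 0.942), and within slide 1 it was 0.27 (SE 0.18). UBE2S, which lengthens the chains that UBE2C starts, was not above background on any array, with 6.48 to 6.68 in unstable and 6.60 to 6.68 in stable animals. UBE2R2, a relative of CDC34 that serves the SCF ligases, was above background on 2 arrays and differed by 0.05 (SE 0.052).

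UBE2C followed a list of cell cycle genes that holds no UBE2 gene. The mean of the 33 measured genes of that list was 7.59, 7.48, 7.87, 7.76 and 8.02 in unstable animals and 7.69, 7.55, 7.55, 7.66 and 7.60 in stable animals. Of these genes 28 had higher and 5 lower means in unstable animals, against 48.9% of all rows with higher means. The adjusted test was passed by 0 of them. The same 3 unstable animals were highest on both measures, and since they stood apart for UBE2C, the relation was tested in the other 7 animals. There Pearson's r was 0.965 (exact permutation p = 0.000595, adjusted over 4 relations 0.00238) and Spearman's rho 0.964 (exact permutation p = 0.00278, adjusted 0.0111), two-sided. These 7 animals were chosen after the UBE2C values were seen, and the adjustment combines this test with tests over 10 animals. Over all 10 animals r was 0.947 and rho 0.988, and with slide means removed 0.899 and 0.794. No slide held 6 animals, so r within a slide is not given. The part of the cell cycle genes in the UBE2C difference was not tested.

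For UBE2T, r with the same list was 0.726 over 10 animals (permutation p = 0.0148, adjusted 0.0297) and rho was 0.539 (permutation p = 0.113, adjusted 0.226). Without unstable animals 3 and 5, the farthest from the median of the list, r was 0.27 (exact permutation p = 0.51), so the relation rests on those 2 animals. With slide means removed r was 0.659 (permutation p = 0.0372). For UBE2S, which had no signal above background, r was -0.0357 (permutation p = 0.925, adjusted 0.925) and rho 0.152 (permutation p = 0.682).

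**Figure D4:**
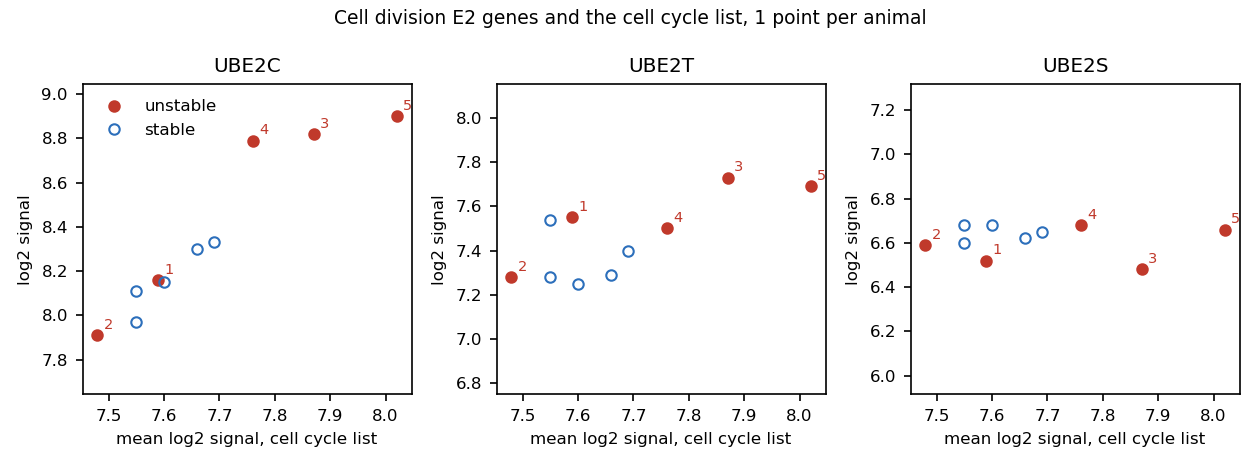
Log2 signal of UBE2C, UBE2T and UBE2S (y axes, equal spans) against the mean log2 signal of the cell cycle list (x axes), 1 point per animal, unstable filled with the animal's number and stable open. UBE2C climbs with the list in animals of both groups, UBE2T does so mainly through unstable animals 3 and 5, and UBE2S stays flat at the floor.

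Of 16 measured genes of the anaphase-promoting complex and its regulators 10 had higher and 6 lower means in unstable animals, and none passed. An unadjusted limma p under 0.05 was met by 1 gene, where 5.13% of all rows met this. That gene was the subunit ANAPC11, the RING protein that binds the E2, at 7.68 ± 0.039 in unstable and 7.56 ± 0.054 in stable animals (SD, n = 5 each; difference 0.11, SE 0.034, limma adjusted p = 0.918). CDC20, the activator of the complex in mitosis, lay between 9.24 and 10.59 in unstable and between 9.42 and 10.01 in stable animals, with unstable animals 3, 4 and 5 highest as for UBE2C. Its difference was 0.33 (SE 0.255). ANAPC2, the cullin-like subunit, differed by 0.04 (SE 0.031) and was above background on no array.

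The E2s of DNA damage tolerance and of signalling chains had small differences, and 3 of the 6 rows were above background on 2 arrays or none. UBE2N read 8.19, 8.32, 8.24, 8.38 and 8.49 in unstable animals and 8.51, 8.53, 8.09, 8.25 and 8.36 in stable animals, a difference of -0.03 (SE 0.088). Its partner UBE2V1 read 6.86, 6.83, 6.82, 6.91 and 6.83 in unstable animals and 6.87, 6.92, 6.89, 6.84 and 6.88 in stable animals, above background on 2 arrays, and UBE2V2 differed by -0.03 (SE 0.046). UBE2A differed by 0.05 (SE 0.039) and its close relative UBE2B by 0.01 (SE 0.071). UBE2NL, near background, differed by 0.05 (SE 0.033). All 6 genes of this class were within 0.1 log2 units.

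Of 13 measured partners of UBE2N and of the linear chain complex 6 had higher and 7 lower means. RNF8, which recruits UBE2N to DNA breaks, read 7.25, 7.28, 7.32, 7.27 and 7.36 in unstable animals and 7.23, 7.19, 7.24, 7.14 and 7.08 in stable animals. All unstable animals were above all stable animals for RNF8, a separation found for 0.838% of all rows (difference 0.12, SE 0.038, limma adjusted p = 0.918). RNF31, the catalytic subunit of the linear chain complex, differed by -0.15 (SE 0.065, limma adjusted p = 0.942), and RBCK1, its partner, by -0.05 (SE 0.034). Of 7 partners of the RAD6 homologues 2 had higher and 5 lower means, with UBR2, an N-degron ligase, at -0.12 (SE 0.062), RNF20, the histone H2B ligase, at 0.11 (SE 0.062) and PCNA at 0.06 (SE 0.04).

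Of the 5 E2s for ubiquitin-like modifiers 4 had lower means in unstable animals. Of 10 measured SUMO ligases and proteases 5 had higher and 5 lower means, and the 3 with the smallest p were SENP3 at -0.12 (SE 0.069), PIAS1 at -0.09 (SE 0.056) and PIAS3 at -0.10 (SE 0.068).

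The NEDD8 carriers had differences of opposite sign, neither of which passed. UBE2M differed by -0.15 (SE 0.121, 95% interval -0.42 to 0.11) and by -0.04 without unstable animal 4. UBE2F differed by 0.08 (SE 0.055), and by 0.04 within slide 1. It differed by 0.15 with the age label as a covariate, 0.17 without unstable animals 1 to 3 and 0.17 with median scaling. In these last 3 fits its unadjusted limma p was under 0.05. Of 10 measured genes of neddylation 4 had higher and 6 lower means, with DCUN1D1 at 0.06 (SE 0.033), CUL5 at 0.11 (SE 0.062) and RNF7, the RING partner of CUL5, at -0.06 (SE 0.039), DCUN1D1 and RNF7 being above background on no array. UBE2Z, which carries FAT10 and ubiquitin from the activating enzyme UBA6, read 7.55 to 7.64 in unstable and 7.45 to 7.77 in stable animals, a difference of -0.06 (SE 0.057). The difference was -0.11 without stable animal 4 and -0.18 within slide 1, in each case with an unadjusted limma p under 0.05, and -0.04 without stable animal 1 or without stable animal 5.

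UBE2L6, the ISG15 carrier, read 9.08, 9.14, 8.84, 8.95 and 9.25 in unstable animals and 9.20, 9.29, 9.24, 9.0 and 9.11 in stable animals. Unstable animals 3 and 4 were the lowest, and the difference was -0.11 (SE 0.08, limma adjusted p = 0.945), or -0.06 without unstable animal 3. The other measured parts of the route were highest in other animals than UBE2L6 was. ISG15 itself read 6.97, 6.96, 6.84, 7.20 and 7.25 in unstable animals and 7.25, 6.95, 8.50, 7.06 and 7.23 in stable animals, and HERC5, its main ligase, read 8.74, 9.23, 8.73, 9.09 and 8.66 in unstable animals and 8.95, 8.62, 9.79, 9.21 and 8.6 in stable animals. Stable animal 3 was the highest for both, but stable animal 2 was the highest for UBE2L6. The activating enzyme of ISG15, listed as UBE1L and now named UBA7, was likewise highest in stable animal 3 and differed by -0.20 (SE 0.134). HERC6, above background on no array, differed by -0.02 (SE 0.038). TRIM25 differed by 0.02 (SE 0.059) and was highest in stable animal 3, at 9.26 against 9.25 in unstable animal 5.

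The mean of 34 measured interferon-stimulated genes was 8.29 in stable animal 3, against 7.75 to 7.91 in unstable animals and 7.83 to 7.89 in the other 4 stable animals. Of these genes 26 had lower and 8 higher means in unstable animals, against 48.9% of all rows with higher means. An unadjusted limma p under 0.05 was met by 3, all lower, where 2.73% of all rows met this in that direction. The median difference was -0.10, against -0.002 over all rows, and 9 of the 34 genes were above background on no array. UBE2L6 did not show a relation to this mean over the 10 animals that passed the test (r = 0.38, permutation p = 0.287, adjusted 0.383; rho = 0.309, permutation p = 0.39). Without stable animal 3 and unstable animal 3, the farthest from the median, r was -0.179 (exact permutation p = 0.662). With slide means removed it was 0.171.

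The remaining members are large or little studied E2s. UBE2O, a large enzyme that acts as E2 and E3 at once, differed by -0.05 (SE 0.054). UBE2Q1 differed by -0.09 (SE 0.047, limma adjusted p = 0.942), with 7.94 to 8.06 in unstable and 7.94 to 8.17 in stable animals, and UBE2Q2 by -0.03 (SE 0.072). UBE2Q2 was lowest in unstable animal 4 at 6.96, against 7.22 to 7.38 in the other unstable animals and 7.19 to 7.36 in stable animals. UBE2H differed by -0.02 (SE 0.036). UBE2U and UBE2MP1, both at the floor, differed by less than 0.02.

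Upstream of the family, 10 rows of E1 enzymes were measured, 3 with higher and 7 with lower means, and none passed. An unadjusted limma p under 0.05 was met by 1 row, where 5.13% of all rows met this. UBE1, now named UBA1, which activates most ubiquitin, read 9.25, 9.42, 9.25, 9.17 and 9.30 in unstable animals and 9.26, 9.48, 9.40, 9.56 and 9.52 in stable animals (difference -0.17, SE 0.063, limma adjusted p = 0.942). All but 1 of the stable animals lay at or above 9.40, and 1 of the unstable animals did.

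Of 13 measured modifier genes 7 had higher and 6 lower means. None passed. An unadjusted limma p under 0.05 was met by 1 in each direction, where 2.41% of all rows met this higher and 2.73% lower. RPS27A, which encodes ubiquitin fused to a ribosomal protein, read 14.10, 14.15, 14.07, 14.10 and 13.95 in unstable animals and 14.25, 14.21, 14.18, 14.25 and 14.13 in stable animals, a difference of -0.13 (SE 0.042, limma adjusted p = 0.933). The groups overlapped, since stable animal 5 lay below unstable animal 2, the highest of its group. SUMO3 differed by 0.15 (SE 0.105).

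Of the 10 rows of E2 or E2-like genes with other symbols 4 had higher and 6 lower means. TSG101, an E2-like protein without catalytic cysteine that sorts ubiquitinated cargo in endosomes, read 10.06, 10.11, 10.07, 10.14 and 10.06 in unstable animals and 10.04, 9.96, 9.99, 9.94 and 10.01 in stable animals. All unstable animals were above all stable animals for TSG101, a separation found for 0.838% of all rows (difference 0.10, SE 0.031, limma adjusted p = 0.918). FTS, an E2-like protein without enzyme activity and an older symbol of AKTIP, which has a row of its own, differed by 0.17 (SE 0.126). The AKTIP row differed by 0.15 (SE 0.189), so this gene is counted as higher in both rows. CDC34 was above background on 2 arrays and differed by -0.06 (SE 0.054), and HIP2, the older symbol of UBE2K, was above background on none and differed by -0.03 (SE 0.043). Over all 101 measured partner rows outside the rule, 8 (7.92%) had an unadjusted limma p under 0.05, 4 in each direction. Of all rows 5.13% met this, 2.41% higher and 2.73% lower. After adjustment 0 of the partner rows passed.

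**Figure D5:**
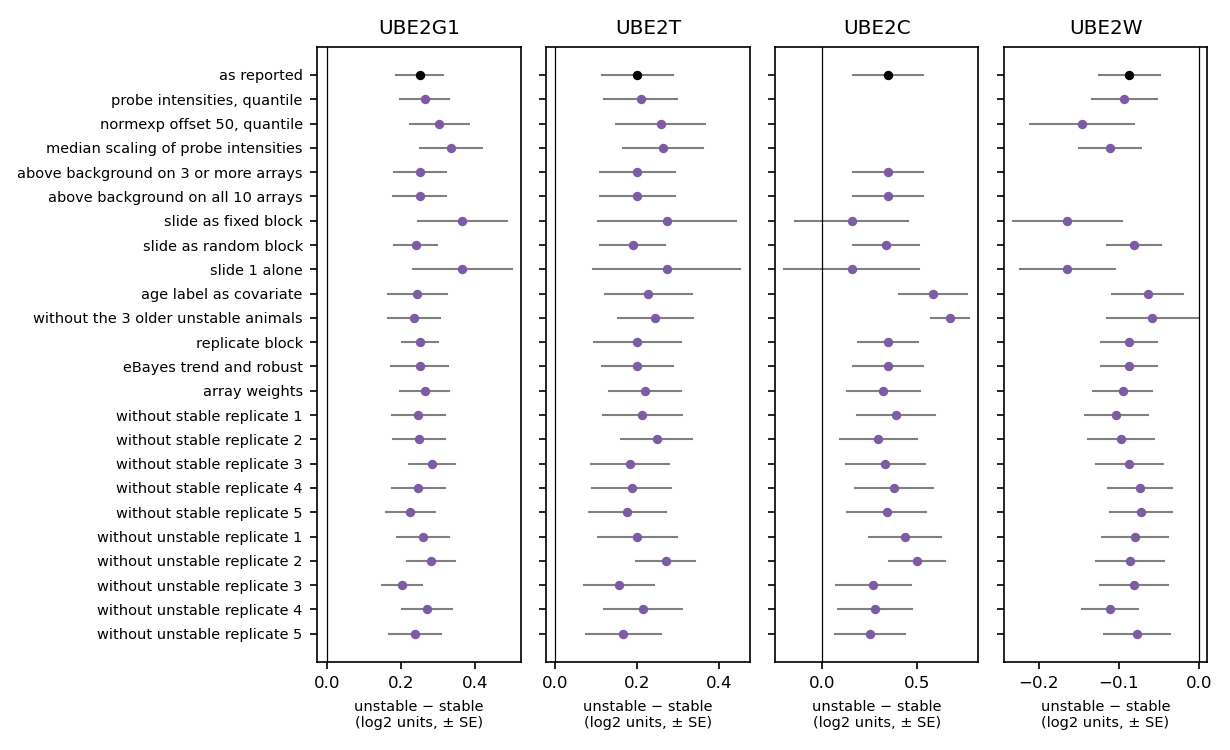
Difference between unstable and stable animals (x axes, log2 units, bars ± SE) of UBE2G1, UBE2T, UBE2C and UBE2W as reported (black) and under each alternative (purple). Each gene keeps its direction in every alternative drawn, and the size of UBE2C varies most, from 0.16 to 0.67. Where a gene has no point, it could not be matched to its probes or did not pass the filter on signal.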

How the data were processed

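The deposited files were intensity values of 24526 probes on 10 arrays, not normalized between arrays, and the authors' log2 values with 1 row per gene symbol (18622 rows). The submitters' processing notes name GenomeStudio. The normalization behind the log2 table is not given in the sources used here, but its values have nearly one distribution on all arrays. Columns were assigned by array name and sample label.

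Members were read from the log2 table as deposited. They and the gene lists were chosen with earlier results of these data known. All rows were fitted with limma 3.58.1 in R 4.3.3 (lmFit, eBayes, two-sided, unstable minus stable, no covariates), with Benjamini-Hochberg adjustment over 18622 rows, and the fit was tested on simulated data. Probe intensities were brought to the scale of the log2 table by a learned monotone map. A row was matched where 1 probe, or the mean of 2, lay within 0.01 log2 units on all 10 arrays. This matched 19 members to 1 probe and 7 to a pair, and 8 members stayed unmatched. Permutation tests used 100000 resamples, or all orders below 10 animals. Genes named with values per animal were those with an unadjusted p under 0.05, the extremes of level and spread, a fixed set by role, and up to 3 genes of smallest p in each partner list. UBE2D2, UBE2E1, UBE2E3, UBE2G2, UBE2J1, UBE2Q2, ISG15, HERC5 and the partner genes given by animal were described at that length after their values were seen. Alternatives changed the table, background correction (normexp, offset 50), scaling, signal filter, slide, age label, replicate number, variance model and animals. No genome was used, so no position or sequence is given, and 10 arrays limit the precision. A few genes are not reported here by name or in the figures, and the counts include them.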

Additional observations from a re-analysis of the deposited data

Results flagged for a closer look

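In 3 of the 68 groups of 5 values (34 genes in each social condition), 1 animal lay farther from the rest than Dixon's 95% limit allows, where chance gives about 1 in 20, or 3.4. UBE2E2 was at 9.21 in stable animal 3, against 8.99 to 9.05 in the other stable animals. UBE2NL was at 6.68 in unstable animal 2, against 6.78 to 6.81 in the other unstable animals. UBE2W was at 6.65 in unstable animal 4, against 6.52 to 6.55 in the other unstable animals, and without that animal its difference between groups was -0.11. UBE2NL and UBE2W were above background on no array.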

How the results depend on the processing

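No member passed an adjusted p of 0.05 in any of the 23 alternatives, where the smallest adjusted p of a member was 0.46 (slide as a random block). That fit used a negative slide correlation of -0.084, and 7.52% of all rows had an unadjusted limma p under 0.05 in it. Over all rows 1 gene passed with slide as a fixed block and 1 without the 3 older unstable animals, neither a member, and 0 passed otherwise. Members with an unadjusted p under 0.05 numbered 1 (without stable animal 5, and among rows above background) to 6 (median scaling), against 4 as reported, while 4.4% to 7.52% of all rows met this. UBE2G1 was among them in each, at 0.204 to 0.285 with 1 animal left out. Its highest value, 0.37, came from slide 1 alone and slide as a fixed block, which rest on stable animal 5, the lowest of all 10 for this gene, and say nothing of stability. The members' median difference of -0.022 became 0.029 with median scaling of the probe intensities, and ran from -0.029 to 0.001 with 1 animal left out. Signs differed from the reported ones for 7 of 26 members with median scaling, 8 of 34 within slide 1, 9 with the age label as covariate and 10 without the older animals, none of them among the 4 with an unadjusted p under 0.05. The relation of UBE2T to the cell cycle list fell to r = 0.27 without 2 animals. UBE2C over 7 animals was an alternative chosen after seeing the data. Same-numbered animals were not alike (correlations of deviations -0.0607 to 0.00725), and with the replicate block 0 genes and 0 members passed, with a median difference of -0.022. Signals near background, found for 11 members, limit what these rows can show.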
